A study of Mus musculus with 19 samples.

Results

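Oxidative phosphorylation is the last stage of respiration. Electrons from NADH enter complex I, electrons from succinate enter complex II, both pass through complex III to complex IV, where oxygen is reduced, and the proton gradient built on the way drives ATP synthase, complex V. The subunits come from 2 genomes: the nucleus encodes most of them and all of complex II, while the circular mitochondrial genome encodes 13 core subunits of the other complexes and is transcribed as long precursor RNAs that are cut at the tRNAs between the genes. The liver is rich in these complexes, which power urea synthesis, gluconeogenesis and fatty acid oxidation during a fast.

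The genes described here are subunits of the 5 complexes, chosen by gene name. The names were Nduf followed by a, b, c, s or v and a number, and Sdha to Sdhd. To these came names beginning Uqcr, Cox4 to Cox8 with a letter next, or Atp5, and the protein-coding mt- genes. Assembly factors such as Sdhaf1 fall outside these names and are listed apart, and a subunit under another name is left out. The rule found 94 genes among the 14319 that have values in every library, of which 81 are nuclear (37 of complex I, 4 of complex II, 8 of complex III, 15 of complex IV and 17 of complex V) and 13 are mitochondrially encoded (7, 0, 1, 3 and 2 of the same complexes). A gene named for a subunit can also be an isoform or a copy, such as Cox5b-ps, Cox7a2l and Ndufa4l2.

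The livers came from mice that all carried a channelrhodopsin-2 allele (ROSA26 ChR2 fl/wt) that Cre switches on. In the tg mice (AgRP-IRES-Cre tg/wt) Cre is driven from the AgRP locus, which marks hunger-promoting neurons of the arcuate nucleus, and the wt mice (AgRP-IRES-Cre wt/wt) lacked Cre. Light of 473 nm (10 ms pulses at 20 Hz, 3 s on and 1 s off) was given above the arcuate nucleus for 2 h, from zeitgeber time (ZT, hours after lights on) 5.5, or for 4 h, from ZT 3.5, with no food during the light, and livers were taken at ZT 7.5. The groups were tg at 2 h (4 libraries), wt at 2 h (5), tg at 4 h (5) and wt at 4 h (5). No tg mice without light were among the samples, so neuronal excitation and the Cre driver cannot be told apart, and 4 h and 2 h differ also in time without food. Libraries held 21474255 to 32721605 counts.

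No oxidative phosphorylation gene passed the test between tg and wt livers. Of 92 genes with enough counts to test (79 nuclear, 13 mitochondrial), 0 were called (edgeR quasi-likelihood test, Benjamini-Hochberg adjusted p under 0.05) in tg against wt at 2 h, where 2.16% of all 12493 genes tested were called, and 0 at 4 h, where 11.4% were. The same count of 0 held for the mean of both times (14.2% of all genes called), for 4 h against 2 h in tg (0.913%), and for the difference between the tg effects and 4 h against 2 h in wt, where no gene of the whole table was called either. At an unadjusted p under 0.05 the counts were 1 nuclear and 0 mitochondrial genes at 2 h, against 11.7% of all genes, and 0 nuclear and 1 mitochondrial at 4 h, against 25.5%. They were 1 and 0 for the mean of both times (26.9% of all genes), 0 and 0 for the difference (5.79%), and 0 and 0 for 4 h against 2 h in tg (12.1%). DESeq2 and limma-voom also called 0 of these genes in each of the 6 contrasts. These fits share 1 estimate of the spread over the 4 groups, and nuclear genes varied more between libraries at 2 h than at 4 h. Whether this has a part in the counts at 4 h was not tested. In the authors' deposited DESeq2 comparison at 4 h, 8 nuclear and 2 mitochondrial genes had an unadjusted p under 0.05, against 3227 of 14525 genes. At 2 h the deposited counts were 1 and 0, against 1573 of 14576 genes.

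The intervals say how large a change could have been missed. The 95% interval lay within a 1.5-fold change for 76 of 79 nuclear genes at 2 h and again for 76 of 79 at 4 h, against 8039 and 7335 of the 12493 genes tested. For the mitochondrially encoded genes it did so for 11 of 13 at each time. The 3 nuclear genes outside these bounds at both times were Ndufa4l2, Cox7a1 and Cox5b-ps.

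**Figure D1:**
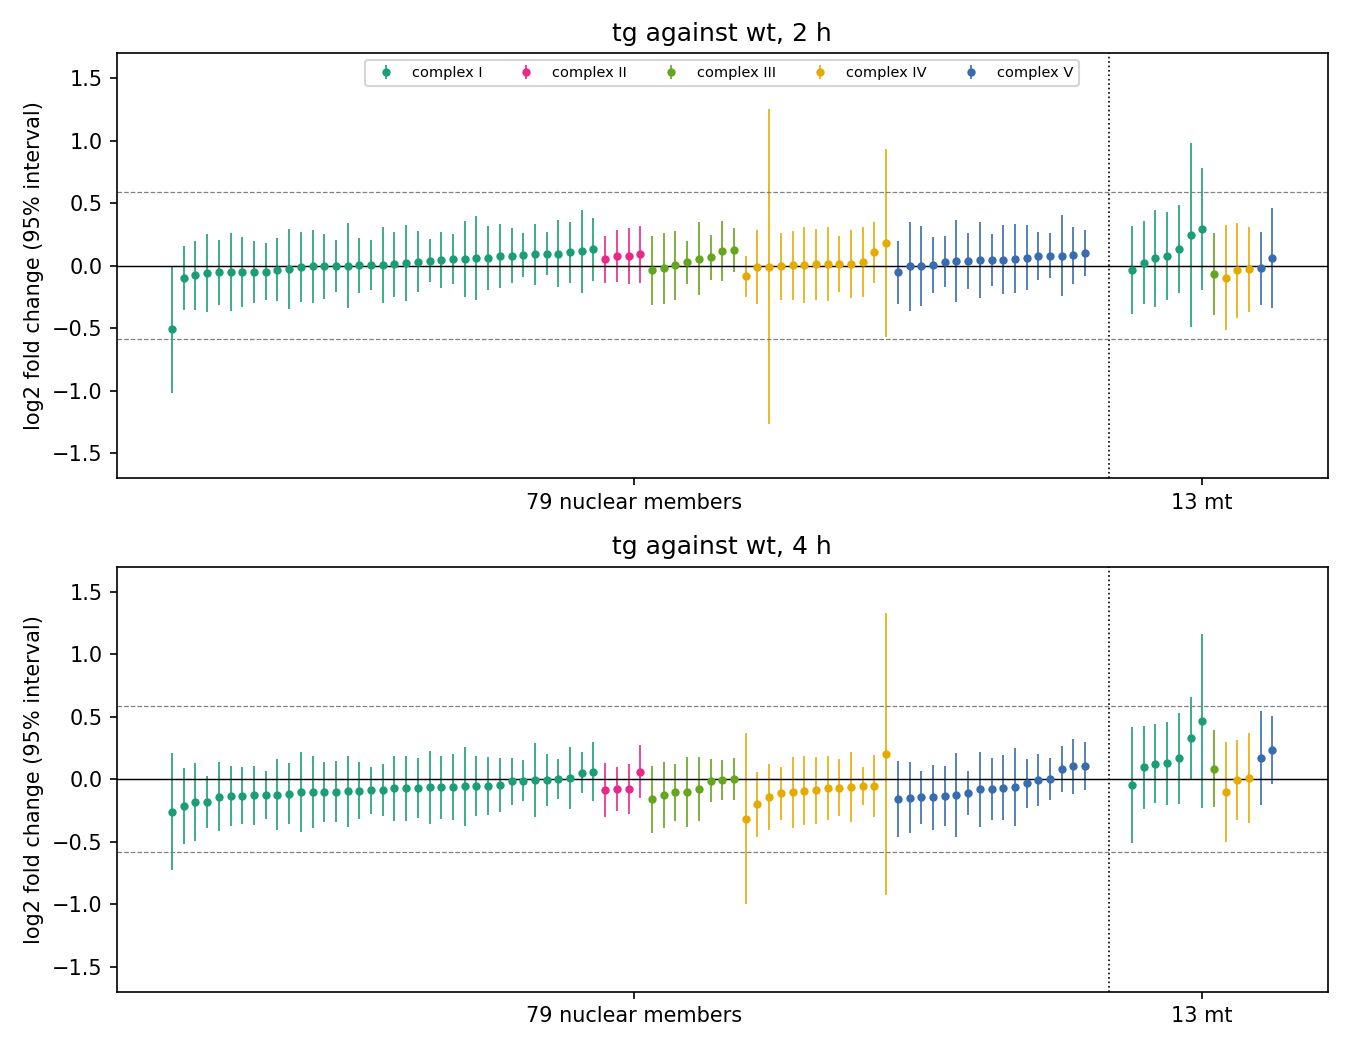
Log2 fold change of each gene in tg against wt at 2 h (top) and 4 h (bottom), as points with 95% intervals, ordered by complex, with the 79 nuclear genes left and the 13 mitochondrially encoded (mt) genes right of the dotted line. Dashed lines mark a 1.5-fold change, and 76 of 79 nuclear intervals lie between them at each time.

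At 2 h the nuclear changes centred on 0: the median log2 fold change was 0.03, from -0.51 to 0.18, with 55 genes above 0 and 24 below, against 51.9% of all genes above 0. At 4 h the median was -0.08, from -0.31 to 0.20, with 11 above 0 and 68 below, against 48.2% of all genes above 0. The count of 11 became 4 with total counts, 7 with upper-quartile scaling, 7 without wt 4 h replicate 3 and 17 without tg 4 h replicate 4. By complex, the medians at 4 h were -0.08 for complex I, -0.08 for II, -0.09 for III, -0.09 for IV and -0.08 for V. The 79 genes move together from library to library, so these counts are not 79 separate observations, and the difference between the tg effects at 4 h and 2 h had a median of -0.11 with no gene called.

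Ndufa4l2, a paralog of Ndufa4 named for complex I, was the nuclear gene with the smallest p at 2 h. Its CPM (counts brought to a common library size with edgeR's TMM factors) was 1.07, 1.02, 1.15 and 0.884 CPM in tg at 2 h, against 1.495, 1.36, 1.65, 1.59 and 1.24 CPM in wt at 2 h. The groups did not overlap, as was so for 3.09% of all genes in the lower direction, with a log2 fold change of -0.51 ± 0.24 (SE; adjusted p = 0.425). At 4 h the ranges overlapped, with 1.28, 1.38, 1.44, 1.41 and 0.775 CPM in tg and 0.920, 1.16, 1.73, 2.26 and 1.47 CPM in wt. The gene had 20 to 55 counts per library. Ndufa4 itself, now regarded as a subunit of complex IV, had 186 to 283 CPM in tg and 169 to 273 CPM in wt at 2 h, and overlapping ranges.

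Cox6c, a small membrane subunit of cytochrome c oxidase, separated the groups at 4 h. It had 175, 167.9, 173, 169 and 167.9 CPM in tg at 4 h, against 181, 214, 206, 186 and 191 CPM in wt at 4 h. All tg values lay below all wt values, as was so for 3.91% of all genes in the lower direction. The log2 fold change was -0.20 ± 0.13 (SE) with adjusted p = 0.347, and 0.00 ± 0.13 at 2 h, where tg had 129 to 187 CPM and wt 119 to 213 CPM. The authors' deposited table gives Cox6c a log2 fold change of -0.19 at 4 h with an adjusted p of 0.0302, which makes it the 1 gene of this set that their table calls at 4 h, against 12.2% of the genes with an adjusted p there. The authors' deposited table calls none at 2 h, where its lowest adjusted p among these genes is 0.377. The nuclear gene of smallest p at 4 h was Ndufa6, an accessory subunit of complex I, at -0.18 ± 0.10 (adjusted p = 0.282).

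Nuclear subunits of complexes II to V had similarly small differences. Atp5b, the catalytic beta subunit of ATP synthase, had 1000 to 1210 CPM in tg and 799 to 1237 CPM in wt at 4 h, and a log2 fold change of 0.10 ± 0.10. Cox4i1, the common form of a regulatory subunit of complex IV, had 324 to 341 CPM in tg and 313 to 361 CPM in wt at 4 h, and a log2 fold change of -0.05 ± 0.12. Sdhb, the iron-sulfur subunit of complex II, had a log2 fold change of -0.09 ± 0.10, and Uqcrfs1, the Rieske iron-sulfur protein of complex III, had -0.01 ± 0.08. None of these passed the test (adjusted p from 0.580 to 0.959).

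Isoforms of other tissues were low in every group. Cox4i2 had 0 to 6 counts and Cox6b2 0 to 4 counts per library, below the filter, where a count of 0 allows up to 3 counts. Cox7a1, the heart and skeletal muscle form, had 0.370 to 1.06 CPM in tg at 2 h, 0.302 to 0.948 CPM in wt at 2 h, 0.541 to 0.870 CPM in tg at 4 h and 0.507 to 1.28 CPM in wt at 4 h. Its liver counterpart Cox7a2 had 94.5 to 138 CPM in tg and 90.3 to 164 CPM in wt at 2 h.

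The mitochondrial genome yielded far more RNA than the nuclear subunit genes. The 13 genes held 7.75, 12.9, 10.2 and 11.2% of all counts in tg at 2 h and 11.6, 10.2, 12.7, 11.2 and 10.0% in wt at 2 h. At 4 h they held 11.4, 10.5, 11.4, 10.7 and 10.9% in tg and 7.83, 11.1, 12.6, 12.3 and 10.6% in wt. The means were 10.5 ± 2.16% in tg and 11.1 ± 1.09% in wt at 2 h, and 11.0 ± 0.41% in tg and 10.9 ± 1.91% in wt at 4 h (SD, n = 4, 5, 5 and 5), so the groups overlapped. Tg 2 h replicate 1 and wt 4 h replicate 1 stood low. The 81 nuclear genes together held 1.04 to 1.36%.

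**Figure D2:**
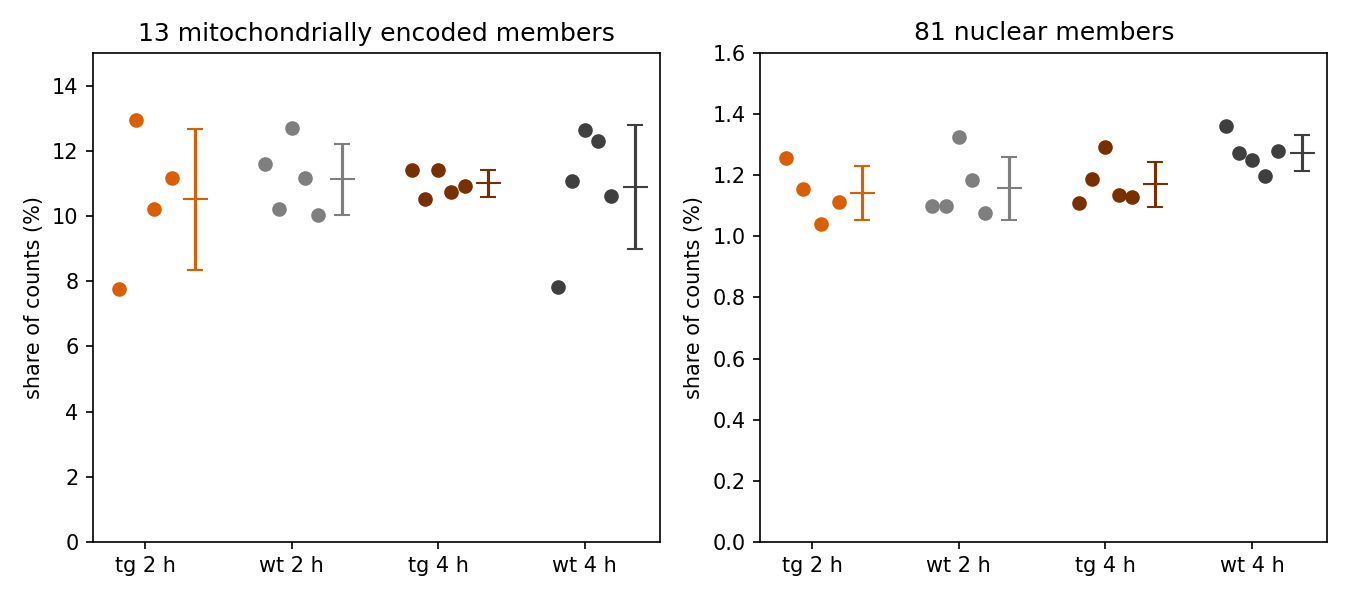
Share of all counts (%) taken by the 13 mitochondrially encoded genes (left) and the 81 nuclear genes (right), 1 point per library, with bars for mean and SD. The groups overlap, and tg 2 h replicate 1 (7.75%) and wt 4 h replicate 1 (7.83%) lie below the other mitochondrial shares.

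Per kilobase of the longest transcript, mt-Co1, the catalytic subunit of cytochrome c oxidase, was highest at 25090 CPM per kb, averaged over the libraries. mt-Cytb, the only mitochondrially encoded subunit of complex III, followed at 11770, mt-Atp6, a proton-channel subunit of ATP synthase, at 11310, and mt-Atp8 at 10350 CPM per kb. Lowest were mt-Nd3 at 338 and mt-Nd6 at 110 CPM per kb, both subunits of complex I. mt-Nd6 is the only one of the 13 on the other strand, and its messenger is known in human cells to lack a long poly(A) tail. These libraries were made from poly(A) RNA, and whether this has a part in the level of mt-Nd6 was not tested. Among nuclear genes the highest per kb were Atp5b at 543, Atp5g3 at 419, Cox4i1 at 416 and Cox6a1 at 363 CPM per kb. This order depends on the transcript length: with the principal transcript, Ndufa4 goes to 451, against 194 CPM per kb with its longest one.

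**Figure D3:**
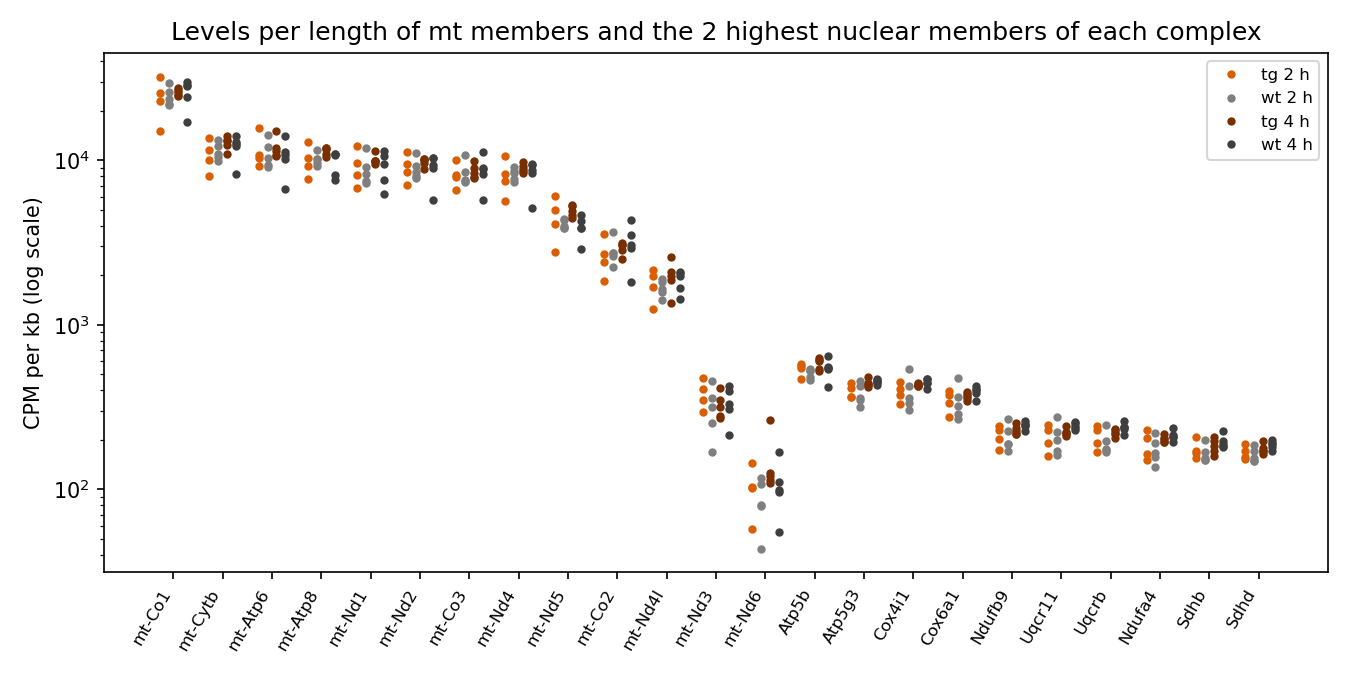
Level of each mitochondrially encoded gene and the 2 highest nuclear genes of each complex, in CPM per kb of longest transcript on a log scale, 1 point per library, coloured by group. mt-Co1 averages 25090 and mt-Nd6 110 CPM per kb, and the 4 groups overlap for each gene shown.

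Some mitochondrial genes share bases with a neighbour, so reads there cannot be given to 1 gene by position alone. mt-Atp8 and mt-Atp6 overlap in 43 bases (MT:7927-7969, GRCm38), mt-Nd4l and mt-Nd4 in 7 (MT:10167-10173), and mt-Nd5 and mt-Nd6 in 14 on opposite strands (MT:13552-13565). The 43 bases, read from the GENCODE transcripts, begin with the start codon of mt-Atp6, which lies inside the reading frame of mt-Atp8.

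mt-Atp8 and mt-Atp6 overlap: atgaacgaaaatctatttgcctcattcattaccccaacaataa

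Nuclear copies of mitochondrial DNA are another source of ambiguity. Of the 31-base words in each mitochondrial gene, a median of 62.8% also occurred in the transcript of another annotated gene, from 0 in mt-Nd1 to 100% in mt-Co2, and over 50% in 7 of the 13. For the nuclear genes the median was 5.5%, and 2 of 81 exceeded 50%, Cox5b-ps (74.4%, shared with Cox5b) and Ndufs3 (55.0%). Values of these genes depend on how the counting divided shared reads. The search of 31-base words also takes in words shared with a neighbouring mitochondrial gene, as between mt-Atp8 and mt-Atp6. It does not see copies outside annotated transcripts.

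mt-Nd5, a subunit of the proton-pumping arm of complex I, was the mitochondrial gene with the smallest p in tg against wt at 4 h. It had 9783, 8473, 8140, 8941 and 9591 CPM in tg at 4 h, against 5252, 7777, 7085, 8550 and 7045 CPM in wt at 4 h. The ranges overlapped, with a log2 fold change of 0.33 ± 0.16 (adjusted p = 0.196). At 2 h it had 5087, 11120, 7491 and 9135 CPM in tg and 7946, 7102, 7088, 8017 and 7305 CPM in wt, with 0.13 ± 0.17 (adjusted p = 0.887). Over both times the log2 fold change was 0.23 ± 0.12 (adjusted p = 0.205), and without tg 2 h replicate 1 it was 0.32 with adjusted p = 0.0308, so 1 library decides that call.

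mt-Nd6 had the largest mitochondrial change at 4 h, 0.47 ± 0.33 (adjusted p = 0.410). It had 137, 57.0, 65.6, 59.5 and 62.5 CPM in tg at 4 h, against 28.6, 50.1, 51.9, 57.9 and 87.2 CPM in wt at 4 h. Of the tg values, 1 lay far above the rest and the other 4 lay within the wt range. mt-Co1, by far the most abundant, had a log2 fold change of 0.01 ± 0.17 at 4 h and -0.04 ± 0.18 at 2 h. Of the 13 genes 10 were above 0 at 4 h and 7 at 2 h.

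At 4 h against 2 h, each of the 79 nuclear genes tested had a log2 change above 0 in tg, with a median of 0.11, and each of the 79 in wt, with a median of 0.22, against 51.9% and 50.1% of all genes. In wt, 30 of the 79 had an unadjusted p under 0.05 and were higher at 4 h, against 3.09% of all genes, and 0 were called. In tg 0 of 79 had, against 4.95% of all genes. The smallest p in wt was that of Atp5c1, the gamma subunit that turns inside ATP synthase. It had 285, 290, 233, 252 and 264 CPM in wt at 4 h, against 211, 203, 245, 227 and 208 CPM in wt at 2 h, a log2 fold change of 0.28 ± 0.08 (adjusted p = 0.821). The ranges overlapped. Ndufv3, an accessory subunit of complex I, was the 1 nuclear gene whose groups did not overlap in tg, as was so for 2.32% of all genes in the higher direction: it had 69.1, 69.0, 69.3, 69.6 and 72.1 CPM in tg at 4 h, against 59.6, 67.7, 52.8 and 62.2 CPM in tg at 2 h (log2 fold change 0.21 ± 0.13, adjusted p = 0.560). In wt, Uqcrb of complex III had 0.30 ± 0.11, and Ndufb2 of complex I 0.31 ± 0.11. Longer light, more time without food and an earlier start of the session cannot be told apart here.

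**Figure D4:**
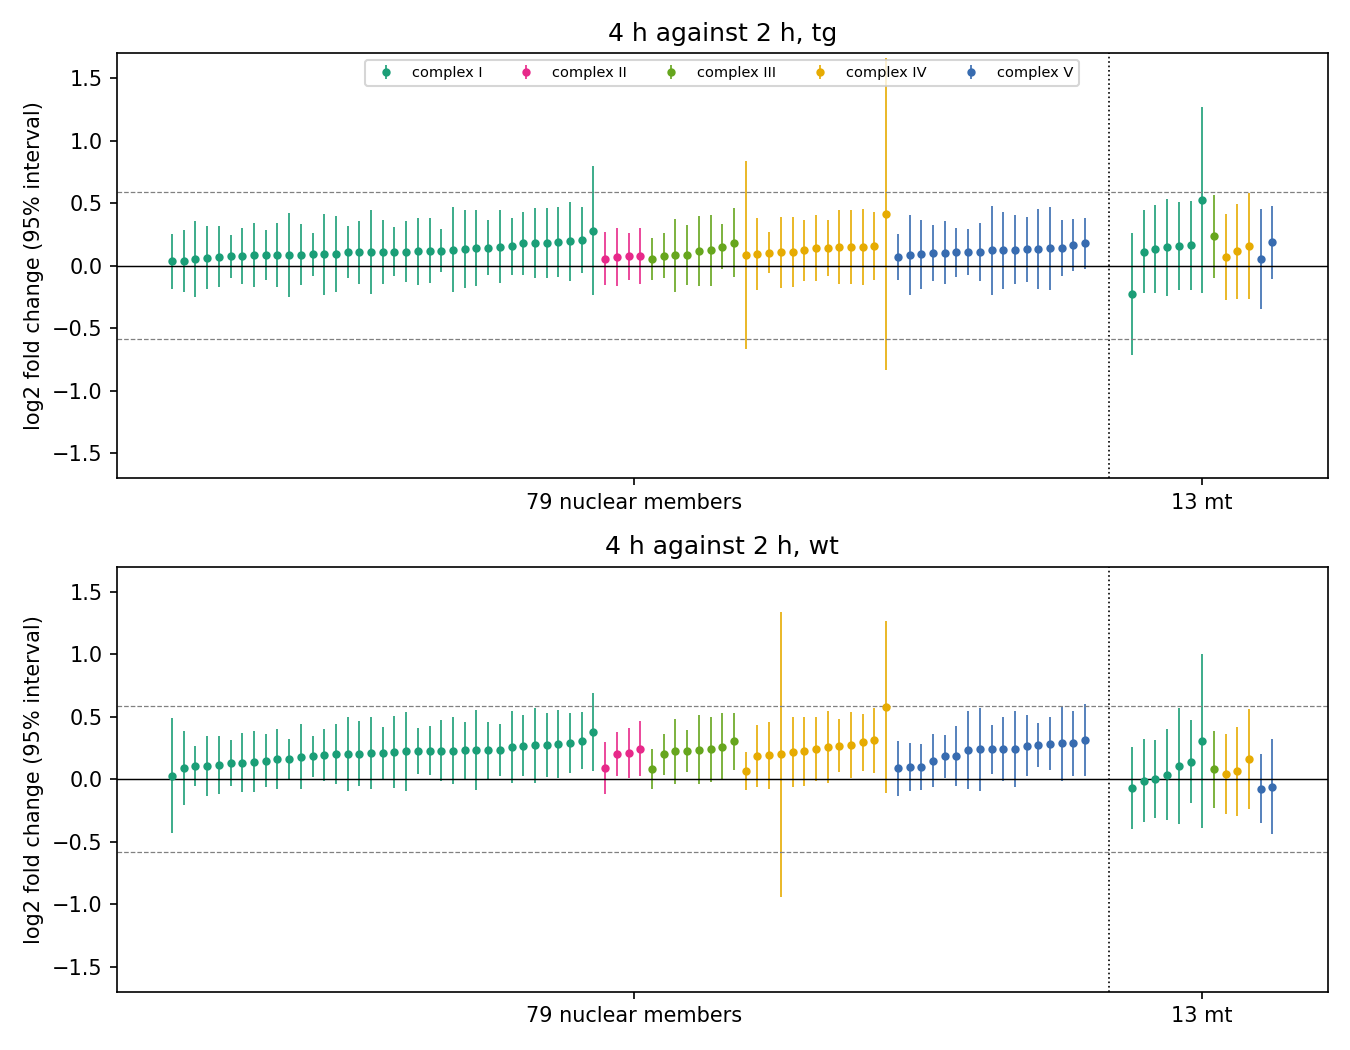
Log2 fold change of each gene at 4 h against 2 h in tg (top) and in wt (bottom), as points with 95% intervals, ordered by complex as for the tg against wt plot. All 79 nuclear points lie above 0 in both panels, with medians of 0.11 in tg and 0.22 in wt, and no gene is called.

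That count in wt rests on single libraries. It was 67 of 79 without wt 2 h replicate 3, in which 74 of 79 nuclear genes lay above their group mean, by 0.37 on average (log2). It was 8 without wt 2 h replicate 1, 9 without wt 2 h replicate 5, 11 without wt 4 h replicate 2 and 13 without wt 2 h replicate 2. Without the 3 libraries whose nuclear genes lay farthest from their group (wt 2 h replicates 1 and 3 and tg 2 h replicate 3), which were chosen by that level itself after the data were seen, it was 64 of 79, and the nuclear genes above 0 in tg against wt at 2 h were 77 of 79 in place of 55. In tg, the 79 above 0 at 4 h against 2 h became 59 without tg 2 h replicate 3 alone, and 67 with total counts. The direction at 2 h therefore depends on which libraries enter.

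Nuclear genes varied together between libraries of 1 group. Deviations from the group means, over the 79 genes and 19 libraries, had 71.5% of their variance in the first component, against 66.6% for the 13 mitochondrial genes and 20% for all genes tested. Of the 79 genes 69 correlated above 0.5 with the mean of the others, a description over libraries that share depth and scaling. Sdha, the flavoprotein of complex II, went against the rest (r = -0.48), as did Ndufs1 (-0.37) and Atp5b (-0.27). The spread was wider at 2 h: the mean of the nuclear genes had an SD over libraries of 0.20 in tg and 0.24 in wt at 2 h, and 0.065 in tg and 0.064 in wt at 4 h (log2).

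In most 2 h libraries, genes with short transcripts varied more than those with long ones. In wt 2 h replicate 3 the 27 genes of shortest transcripts (principal transcripts of up to 623 bases) lay 0.49 above the group mean. The 26 of longest (over 1001 bases) lay 0.20 above. In tg 2 h replicate 3 the short and long ones lay 0.37 and 0.14 below. Some libraries went the other way: in wt 2 h replicate 2 the short ones lay 0.06 and the long ones 0.08 below. In tg 4 h replicate 1 the short ones lay 0.01 above and the long ones 0.08 below. Across the 79 genes the rank correlation of a library's deviation with transcript length ran from -0.60 in tg 2 h replicate 1 to 0.62 in wt 2 h replicate 1. Across all genes tested in the same libraries it was -0.34 and 0.46. Whether RNA quality or library preparation has a part in this was not tested.

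**Figure D5:**
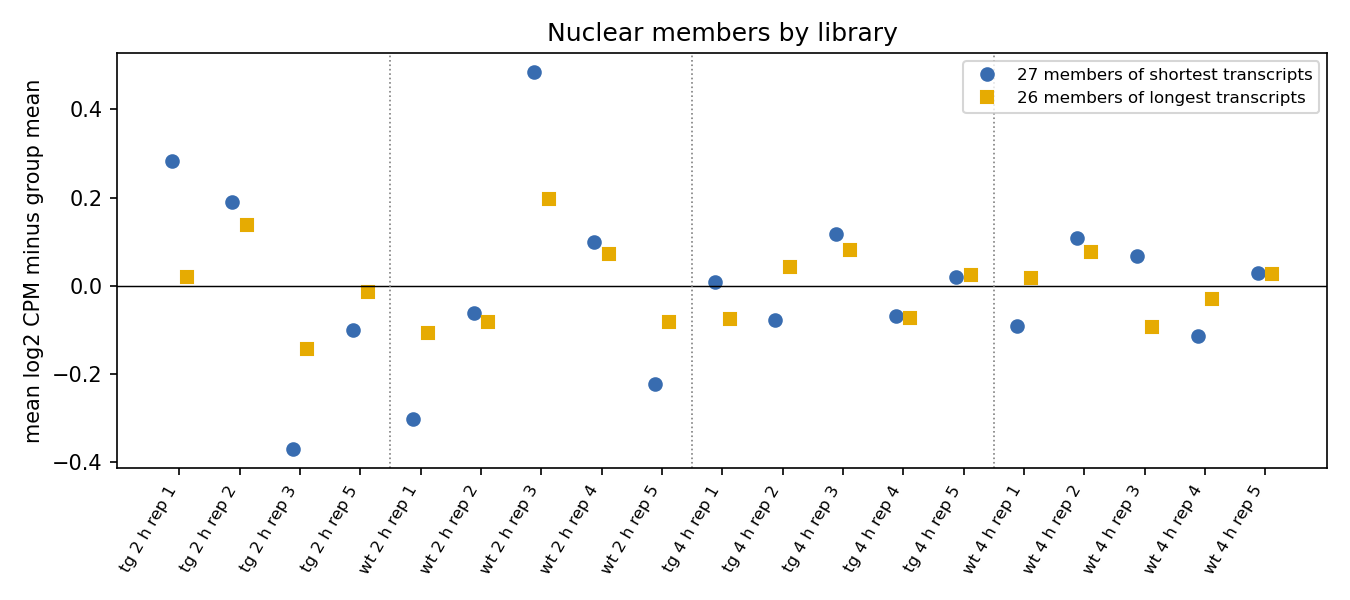
Mean log2 CPM of nuclear genes in each library minus the mean of its group, for the 27 genes of shortest transcripts (circles) and the 26 of longest (squares), with dotted lines between the groups. In wt 2 h replicate 3 the short ones lie 0.49 and the long ones 0.20 above their group mean.

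Promoters of nuclear subunit genes are known for sites of NRF1, GABP and other ETS factors, estrogen-related receptors and YY1. The coactivator PGC-1alpha, encoded by Ppargc1a, works through several of these. Among the 66 nuclear genes with a promoter in the RefSeq table (GRCm38.p6, 250 bases before to 50 after the start), both strands were searched. The NRF1 letters GCGCANGCG occurred in 20 (30.3%), against 7.0% of all 27025 genes with a promoter there. The ETS letters CCGGAAG occurred in 17 (25.8%, against 9.9%), the YY1 letters AAGATGGCG in 7 (10.6%, against 1.6%) and the estrogen-related receptor letters TCAAGGTCA in 2 (3.0%, against 0.5%). A match describes letters and not binding. The 27025 genes were not matched to the nuclear subunit genes for expression or base composition, and the part of either in these shares was not tested. The pair below was taken because between them they hold all 4 motifs, marked in capitals. The Atp5j promoter overlaps that of Gabpa, which encodes a subunit of GABP, and the Sdhd promoter overlaps that of Timm8b. A match in these stretches may therefore lie in the promoters of both genes.

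Sdhd, complex II membrane anchor (chr9:50603800-50604099, minus strand): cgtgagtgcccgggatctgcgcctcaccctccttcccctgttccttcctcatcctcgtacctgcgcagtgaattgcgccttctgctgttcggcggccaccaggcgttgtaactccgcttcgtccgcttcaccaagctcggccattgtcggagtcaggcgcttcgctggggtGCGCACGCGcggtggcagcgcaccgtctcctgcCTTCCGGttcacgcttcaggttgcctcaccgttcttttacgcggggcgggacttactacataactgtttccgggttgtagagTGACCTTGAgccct
Atp5j, coupling factor 6 of ATP synthase (chr16:84834927-84835226, minus strand): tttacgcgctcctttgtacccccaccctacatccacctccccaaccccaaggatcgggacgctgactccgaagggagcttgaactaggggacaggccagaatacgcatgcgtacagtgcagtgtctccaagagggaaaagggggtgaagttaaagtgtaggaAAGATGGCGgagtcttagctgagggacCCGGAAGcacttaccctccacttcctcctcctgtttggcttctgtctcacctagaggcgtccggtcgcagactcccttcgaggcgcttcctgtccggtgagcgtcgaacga

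A few regulators and partners of the complexes were called, where 2.16% of all genes tested were called at 2 h and 11.4% at 4 h. Of 14 tested transcriptional regulators, 1 was higher in tg at 2 h and 1 at 4 h, in both cases Ppargc1a. It had 18.9, 46.3, 25.6 and 37.4 CPM in tg at 2 h, against 10.7, 7.61, 8.44, 12.3 and 10.6 CPM in wt at 2 h, a log2 fold change of 1.69 ± 0.23 (adjusted p = 0.000377). At 4 h it had 34.3, 31, 43.4, 25.6 and 29.7 CPM in tg and 14.8, 10.2, 7.98, 9.81 and 10.1 CPM in wt, with 1.63 ± 0.22 (adjusted p = 0.000122). Every tg value lay above every wt value at both times.

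Carriers and the citric acid cycle showed a few single genes, against 2.16% of all genes called at 2 h and 11.4% at 4 h. Slc25a25, an ATP-Mg/phosphate carrier of the inner membrane, rose by 1.81 ± 0.40 at 2 h and 1.72 ± 0.39 at 4 h (adjusted p = 0.0236 and 0.00814), and was the 1 gene called at 2 h among 12 tested carrier and exchange genes. Coq10b, a coenzyme Q-binding protein, rose by 0.79 ± 0.16 at 2 h (adjusted p = 0.00823), 1 of 23 carriers and entry points, and 0 of these were called at 4 h. Of 15 citric acid cycle enzymes 0 were called at 2 h, and at 4 h fumarase (Fh1) rose by 0.64 ± 0.18 (adjusted p = 0.0255).

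Several genes that maintain and express mitochondrial DNA were called at 4 h. Of 20 genes of mitochondrial DNA upkeep and transcription 4 fell at 4 h and 0 were called at 2 h. These were Polg2, the accessory subunit of the mitochondrial DNA polymerase (fell by 0.71), Mgme1, a mitochondrial exonuclease (fell by 0.69), Mterf4, which takes part in assembly of the mitochondrial ribosome (fell by 0.60) and Dguok, a deoxyguanosine kinase (fell by 0.47). Polg2 had 6.09, 6.93, 7.34, 5.76 and 4.81 CPM in tg at 4 h, against 6.81, 10.0, 11.6, 12.2 and 9.86 CPM in wt at 4 h. Of 28 genes listed for mitochondrial RNA processing and stability, a list that also holds translation factors, Mtif3, a translation initiation factor, fell by 0.64 and Pde12, a poly(A)-removing enzyme, rose by 0.50 at 4 h. Of 52 assembly factors 2 fell at 4 h, Timmdc1 of complex I by 0.29 and Sdhaf1 of complex II by 0.49. Of 77 mitochondrial ribosomal proteins 1 fell, Mrpl49 by 0.31, and of 17 quality-control genes 0 were called at 2 h or 4 h. The calls of Slc25a25 at 2 h (lost in 7 of 9 fits that leave out 1 library), Sdhaf1 (9 of 10), Mrpl49 (8 of 10), Pde12 (8 of 10) and Fh1 (4 of 10) lie close to the threshold. Shares called in these lists stand against 2.16% of all genes at 2 h and 11.4% at 4 h. Each list with a call at 2 h had 1 called gene. At 4 h, 4 of 20 DNA upkeep genes fell, 2 of 15 citric acid cycle genes rose, and among 12 exchange genes 1 rose and 1 fell. These counts are small and were not tested against the share of all genes. In bulk liver, fewer cells of a type and less RNA per cell cannot be told apart. Hepatocyte markers (7 of 8 with values) summed to 92400 to 106000 CPM in tg and 73300 to 95900 CPM in wt at 4 h, with means of 98200 and 84000 CPM, and averaged 86100 CPM in tg and 84000 CPM in wt at 2 h. Of the 8 adipocyte and brown fat markers 3 had values (Cidec, Fabp4 and Cox7a1). These summed to 11.9 to 25.3 CPM in tg and 6.62 to 12.1 CPM in wt at 4 h, and 0 of them were called. The part of either list in the calls at 4 h was not tested. None of 7 skeletal or heart muscle markers was among the genes with values, and of the 11 marker lists the only called gene was 1 cholangiocyte gene at 2 h.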

How the data were processed

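Liver poly(A) RNA of 19 libraries was sequenced, each from 1 sample as labelled; nothing in the labels says that numbers mark shared litters or batches, and p-values measure the spread between these samples. The authors deposited a table of counts per gene, and 2 tables of log2 fold changes and p-values with fold and mean values of their own comparisons. Per the submitters' processing notes the tools were STAR, Salmon 1.4.0 and DESeq2 1.30.0, on GRCm38.p6. Genes with missing values at 4 h (257 of 14576, highest mean 5.11 counts) were left out.

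Counts were filtered (minimum count 10, minimum total 15), scaled with TMM, and fitted with edgeR 4.0.16 (glmQLFit, robust, 1 mean for each of the 4 groups, 15 residual degrees of freedom; R 4.3.3), giving 12493 genes and a biological coefficient of variation of 0.183; Benjamini-Hochberg adjustment ran over all of them. Cox4i2 and Cox6b2 did not pass the filter. The scripts were tested on simulated data. DESeq2 1.42.0 and limma 3.58.1 were alternatives. Members and gene lists were chosen with earlier results of these data known. Genes named are the 13 mitochondrial ones, the 2 most abundant per length in each complex, isoforms, the 3 of smallest p per contrast, those the filter removed, and up to 4 called genes per list. Other genes shown per library or as examples, such as Sdha and Ndufs1, were chosen after their values were seen. No 2 libraries of a group agreed within sampling noise (36 pairs, lowest chi-square per degree of freedom 18.1). Floors for counts of 0 cover counting error only. Some called genes of the pathway lists are not reported here.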

Additional observations from a re-analysis of the deposited data

Results flagged for a closer look

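Among 176 groups of values (44 measures, 4 groups of 4 or 5 libraries), 9 had 1 library set apart from the rest by a large gap; chance sets apart about 1 in 20 such groups, and here 5.11% were. In tg at 4 h, mt-Nd6 was 136.5 CPM in replicate 1, against 57.04 to 65.57 in the other 4. mt-Atp6 was 10280 CPM in tg 4 h replicate 2, against 7283 to 8132 in the others, and mt-Nd1 10980 CPM in tg 4 h replicate 5, against 9149 to 9560. In wt 4 h replicate 1, mt-Nd2 was 5972 CPM, against 9408 to 10790, and mt-Nd4 7081 CPM, against 11490 to 13030, in the library with a mitochondrial share of 7.83%. The nuclear genes were Atp5a1 at 820.8 CPM in wt 4 h replicate 3, against 983.6 to 1029, Cox7a2l at 110.6 CPM in tg 4 h replicate 2, against 90.40 to 96.01, Ndufa4l2 at 0.775 CPM in tg 4 h replicate 5, against 1.277 to 1.437, and Ndufv3 at 72.07 CPM in tg 4 h replicate 5, against 69.03 to 69.64.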

How the results depend on the processing

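Across other scalings, filters, tools and fits, the count of called members was 0 in each contrast, with these exceptions for the mean of 2 h and 4 h, tg against wt. Leaving out single libraries gave 0 to 1 mitochondrially encoded genes (mt-Nd5, without tg 2 h replicate 1) and 0 to 1 nuclear genes (Ndufa4l2, log2 fold change -0.45, adjusted p = 0.0492, without wt 4 h replicate 1). Leaving out the 2 libraries of low mitochondrial share, chosen after seeing the data, gave 1 mitochondrially encoded gene (mt-Nd5, 0.28, adjusted p = 0.0232). Leaving out the 3 libraries of extreme nuclear levels, also chosen after seeing the data, changed no count of called members but moved other counts, as given above. Of 2788 log2 fold changes of named members under other settings, fits without a single library apart, 185 had the other sign, none of them past the threshold. Of 3040 in the fits without a single library, 262 had the other sign, none of them past the threshold. The 2 h count of nuclear genes above 0 (55) was 25 with total counts and 24 to 77 without single libraries. The wt count at unadjusted p under 0.05 (30) was 12 with total counts, 13 in a fit of the wt groups alone, and 24 with the replicate block. Nothing in the labels says that replicate numbers pair the samples. Same-number correlations ran from -0.33 to 0.19, which cannot decide it with 4 or 5 libraries per group. The replicate block changed no call of a member. Of the calls named in the pathway lists, those of Slc25a25 at 2 h (adjusted p up to 0.0698 without 1 library), Pde12 (0.132), Sdhaf1 (0.118), Mrpl49 (0.105) and Fh1 (0.0695) were lost in some fits. Without the 3 libraries of extreme nuclear levels, so were those at 2 h of Slc25a25 (0.248) and Coq10b (0.0521). Depth limits what can be said of Cox4i2, Cox6b2, Cox7a1 and Ndufa4l2.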
